A study of Mus musculus with 2 samples.

Results

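The gliosis and retinal stress genes *Gfap*, *Vim*, *Lcn2*, *Edn2*, *Serpina3n*, *Cp*, *Stat3*, *Fgf2*, *Cebpd*, and *Socs3* were followed in single retinal cells of mice, in 1 WT and 1 ND6 library. They were listed by symbol, with earlier results of these data known, and all 10 were found among the 32285 genes of the count tables. The retinas came from male C57BL/6J mice aged 7 months, which either had WT mtDNA or carried the mitochondrial ND6 mutation 13997 G>A. ND6 is a subunit of complex I of the respiratory chain. The mutant line was kept by crossing mutant females with WT males and the WT line by matings of brothers and sisters, so the line and the mutation cannot be told apart here. Whole retinas were digested to single cells with trypsin and papain and sequenced as droplet-based 3′ libraries, 1 per genotype. Further libraries were not analysed here.

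Müller glia span the retina and are its main glial cell. When photoreceptors or neurons are damaged they become reactive, a state called gliosis, in which they make more of the intermediate filament proteins GFAP and vimentin. In models of photoreceptor injury, photoreceptors release endothelin 2, glia release leukemia inhibitory factor, and the cytokine receptor subunit gp130 passes the signal on to STAT3. STAT3 switches on *Socs3*, which then inhibits the same pathway, and *Cebpd*, *Lcn2*, and *Serpina3n* are known as acute phase and reactive glial genes. FGF2 is a survival factor for photoreceptors, and ceruloplasmin, the product of *Cp*, oxidizes iron so that it can leave the cell.

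A barcode was taken as a cell when it had more than 400 UMIs and more than 200 genes and when mtDNA-encoded genes gave no more than 20% of its UMIs, which left 12529 WT and 18395 mutant cells from libraries of 77958836 and 80358255 UMIs. The limit on mtDNA-encoded UMIs removed 45.9% of the WT barcodes and 17.3% of the mutant barcodes that met the first 2 limits. Cells had a median of 1878 UMIs in WT and 1416 in the mutant, and 59 barcodes occurred in both libraries. UMIs of a gene were summed over the cells of a class and expressed per 1000000 UMIs of that class (CPM), and the mutant level was set against the WT level as a log2 ratio. Since there is 1 library per genotype, the spread between mice is not known, no test was made, and the intervals given (95%, exact) cover counting error only. A gene was counted as higher or lower when its level differed by 1.5-fold or more and it had at least 20 UMIs over both libraries.

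Classes were named from marker genes that do not include any of the 10 genes. They comprised 9944 WT and 13695 mutant rod-like cells, 633 and 1131 cone-like cells, 233 and 642 bipolar-like cells, 77 and 305 amacrine-like cells, and 261 and 150 microglia-like cells. There were also 135 and 724 cells like retinal pigment epithelium (RPE-like), 184 and 227 pigment-rich cells, and 80 and 19 red blood cell-like cells. Only 37 WT and 92 mutant cells were Müller-like, all 21 of 21 Müller markers were raised in them, and their median depth was 9931 UMIs in WT and 1638 in the mutant. They formed 1 cluster whose leading 10 genes began with *Ccn1*, *Adamts1*, *Col9a1*, and *Col2a1* and held *Cp* and 1 listed marker, *Hes1*. A further group of 945 WT and 1410 mutant cells, led by *Nefl*, *Bc1*, *Kif5a*, *Crym*, *Spc25*, and *Glul*, had leading genes of both Müller glia and ganglion cells, stayed unnamed, and is called *Glul*-rich.

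Over all cells, the 10 genes did not all go the same way. *Gfap* and *Lcn2* were higher in the mutant library, 2 of 10 beside 18.6% of all 15888 genes with enough UMIs. *Edn2*, *Cebpd*, and *Socs3* were lower, 3 of 10 beside 7.00% of all genes. *Vim*, *Serpina3n*, *Cp*, *Stat3*, and *Fgf2* differed by less than 1.5-fold. The median log2 ratio of the 10 genes was 0.08, and that of all genes was 0.07.

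Since *Socs3* and *Gfap* are known STAT3 targets, the reference promoters of the genes were read for the STAT motif TTCNNNGAA, which is its own reverse complement, in the 250 bases before and 50 after each start. RefSeq (GRCm38.p6) had such a window for 9 of the 10 genes. The motif was present in 2 of these 9, *Gfap* and *Socs3*, and in 2726 of all 32851 promoters of that length (8.30%). In *Gfap* it begins 2 bases before the RefSeq start of the window and in *Socs3* 154 bases before it. The stretches that hold it are printed 5′ to 3′ on the minus strand, at chr11:102897181-102897450 for *Gfap* and chr11:117969457-117969616 for *Socs3*, with the motif in capitals. Both stretches lie inside the gene spans given below, which reach further upstream, to 102900912 and 117970047. The stretches are shown because *Gfap* was higher and *Socs3* lower in the mutant over all cells.
Gfap: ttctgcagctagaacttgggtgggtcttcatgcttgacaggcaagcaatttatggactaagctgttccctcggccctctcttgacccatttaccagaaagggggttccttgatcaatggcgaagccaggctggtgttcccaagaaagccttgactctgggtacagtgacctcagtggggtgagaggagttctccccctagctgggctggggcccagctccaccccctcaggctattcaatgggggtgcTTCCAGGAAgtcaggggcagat
Socs3: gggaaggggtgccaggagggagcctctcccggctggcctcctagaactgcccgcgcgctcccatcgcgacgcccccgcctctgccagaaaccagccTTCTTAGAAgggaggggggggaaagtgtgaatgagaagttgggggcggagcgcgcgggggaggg
A match describes these letters and not binding in these cells.

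*Gfap* (chr11:102887336-102900912, minus strand, mm10) encodes the filament protein most used as a sign of gliosis, and it was close to absent from these cells. Over all cells it had 5 UMIs in WT, or 0.0917 CPM, and 34 UMIs in the mutant, or 0.540 CPM, a log2 ratio of 2.56 (interval 1.20 to 4.27). All 5 WT UMIs lay in rod-like cells, which held 15 of the 34 mutant UMIs. No class of astrocytes, which also make GFAP, was named here. WT Müller-like cells had 0 UMIs, which allows a level of up to 4.0 CPM at 3 counts. Mutant Müller-like cells had 3 UMIs, or 8.77 CPM. At this depth a difference in *Gfap* between WT and mutant Müller-like cells was not detectable. The *Glul*-rich cells had 0 UMIs in WT and 11 in the mutant, or 2.21 CPM, which is higher by at least 1.33 on the log2 scale when WT is set at 3 counts (0.883 CPM), while the exact interval of the ratio starts at 0.78. Barcodes with 10 to 100 UMIs, used as a measure of free RNA, had 0 *Gfap* UMIs in both libraries. *Gm26668* overlaps *Gfap* on the other strand, and whether reads were counted by strand is not given in the sources used here.

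*Serpina3n* (chr12:104406729-104414329, plus strand), a secreted protease inhibitor of reactive astrocytes and Müller glia, was as sparse, and is 1 of a family of similar neighbouring genes. It had 12 UMIs in WT and 13 in the mutant over all cells, a log2 ratio of −0.09 (−1.34 to 1.17). Müller-like cells held 2 WT UMIs and 1 mutant UMI. Its largest sum in a class was in pigment-rich cells led by *Mlana*, *Dct*, and *Tyrp1*, with 8 UMIs in WT and 4 in the mutant. A difference in *Serpina3n* between the libraries was not detectable.

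*Vim* (chr2:13573927-13582826, plus strand), the second intermediate filament gene, marked the Müller-like cells of both libraries. It reached 312 CPM in WT (234 UMIs, 273 to 354) and 286 CPM in the mutant (98 UMIs, 233 to 349), a log2 ratio of −0.12 (−0.48 to 0.22). Both levels stood above those of every other named class, among them rod-like cells at 7.90 and 9.42 CPM and cone-like cells at 8.05 and 8.37 CPM. Because there were few Müller-like cells, they held only 23.6% of WT and 7.02% of mutant *Vim* UMIs, and the sum over all cells, 18.2 CPM in WT and 22.2 CPM in the mutant, was mostly made by other cells. *Vim* was higher in the mutant *Glul*-rich cells, at 88.8 CPM against 54.1 CPM in WT (log2 ratio 0.71, 0.46 to 0.97). It was also higher in mutant bipolar-like cells, at 47.1 against 15.8 CPM (1.57, 0.99 to 2.21), and amacrine-like cells, at 47.6 against 24.5 CPM (0.96, 0.22 to 1.78). In RPE-like cells *Vim* was higher too, at 49.5 against 23.3 CPM (58 and 13 UMIs, 1.09, 0.20 to 2.08). The summed level of the 21 Müller markers moved the same way in those classes, from 2146 to 4150 CPM in *Glul*-rich, 1142 to 2514 CPM in bipolar-like, and 1527 to 3049 CPM in amacrine-like cells. The sum went from 2713 to 10642 CPM in RPE-like cells, where the sum of the RPE markers also went from 7241 to 37450 CPM. The Müller marker sum was higher in pigment-rich cells (26786 and 26976 CPM) than in Müller-like cells (18510 and 19521 CPM). It thus does not stand for Müller RNA alone. Of the genes with enough UMIs, 4 of 6 in bipolar-like cells (*Vim*, *Cp*, *Fgf2*, and *Cebpd*) were higher, beside 14.2% of 11521 genes. In amacrine-like cells 5 of 5 (these and *Stat3*) were higher, beside 19.7% of 10614 genes. In both classes 0 were lower, beside 4.83% and 10.9%. All 5 had under 20 UMIs in WT amacrine-like cells, so they met the minimum only through their mutant UMIs. The same holds for *Cp*, *Fgf2*, and *Cebpd* in bipolar-like cells (9, 16, and 8 WT UMIs). The interval held 0 for *Cebpd* in both classes (−0.50 to 1.99 and −0.42 to 3.72) and for *Fgf2* in amacrine-like cells (−0.38 to 1.69). The medians of the counted genes, log2 0.77 and 0.96 against 0.07 and 0.05 for all genes, share this limit. Free RNA held *Vim* at 111 CPM in WT and 159 CPM in the mutant (0.53, −0.16 to 1.26). The part of Müller RNA or of RPE RNA in these differences was not tested.

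*Cp* (chr3:19957054-20009145, plus strand), which encodes the ferroxidase ceruloplasmin, was also highest in the Müller-like cells of both libraries. It was measured at 598 CPM in WT (449 UMIs, 544 to 656) and 643 CPM in the mutant (220 UMIs, 561 to 734), a log2 ratio of 0.10 (−0.13 to 0.34). Müller-like cells held 68.7% of all WT *Cp* UMIs and 28.8% of the mutant ones. Outside them *Cp* was higher in the mutant in rod-like cells, at 5.68 against 2.58 CPM (1.14, 0.77 to 1.52), and in *Glul*-rich cells, at 26.2 against 15.6 CPM (0.75, 0.28 to 1.24). In rod-like cells the mutant level was the higher one at every depth, but the gap was smaller in deep cells. From 1000 to under 2000 UMIs *Cp* stood at 2.98 CPM in WT and 7.87 CPM in the mutant. At every other depth the intervals overlapped. From 8000 UMIs upward they were 1.34 to 2.87 CPM in WT and 1.98 to 4.03 CPM in the mutant. The Müller markers summed to 418 CPM in WT and 584 CPM in mutant rod-like cells. In bipolar-like cells *Cp* went from 9 to 82 UMIs, or from 5.27 to 20.2 CPM, and in amacrine-like cells from 1 to 49 UMIs, or 1.36 to 25.1 CPM. In free RNA *Cp* stood at 8.84 CPM in WT (2 UMIs) and 56.5 CPM in the mutant (22 UMIs). Over all cells the levels were nearly equal, 12 and 12.2 CPM. *Cp* overlaps *Hps3* on the other strand.

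**Figure D1:**
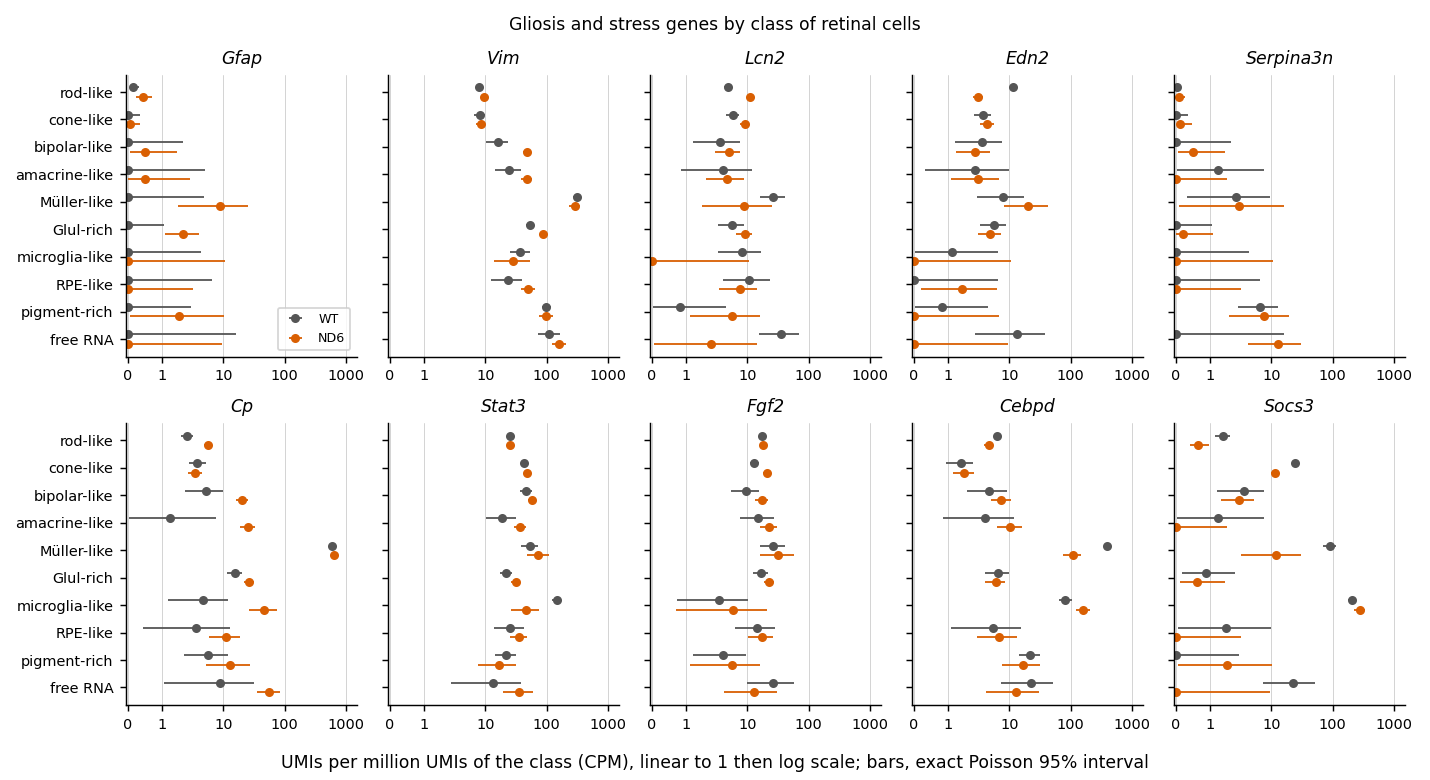
Level of each gene (CPM, linear to 1 and then on a log scale) in each class of cells, with WT and ND6 as separate points and exact Poisson 95% intervals as bars. *Vim* and *Cp* stand highest in Müller-like cells of both libraries, at 286 to 643 CPM, whereas *Cebpd* and *Socs3* are lower in Müller-like cells of the mutant.

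*Cebpd* (chr16:15887286-15891031, plus strand), a C/EBP transcription factor induced by cytokines and injury, was lower in the mutant Müller-like cells. The level was 390 CPM in WT (293 UMIs, 347 to 438) and 108 CPM in the mutant (37 UMIs, 76.2 to 149), a log2 ratio of −1.85 (−2.39 to −1.35). *Socs3* (chr11:117966079-117970047, minus strand), the feedback inhibitor of gp130 signalling, was also lower, from 89.3 CPM (67 UMIs) to 11.7 CPM (4 UMIs). Its log2 ratio was −2.93 (−4.85 to −1.51), an interval that overlaps that of *Cebpd*. Of the 4 mutant *Socs3* UMIs, 3 lay in 1 cell, and 48 of the 293 WT *Cebpd* UMIs lay in 1 cell. Müller-like cells held 44.1% of all WT *Cebpd* UMIs and 9.87% of the mutant ones. Over all cells *Cebpd* was at 12.2 and 5.96 CPM in WT and mutant (−1.03, −1.22 to −0.85) and *Socs3* at 10.4 and 4.96 CPM (−1.07, −1.28 to −0.87). *Cebpd* overlaps *Spidr* on the other strand.

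The share of Müller-like cells with a UMI showed the same order. *Cebpd* was found in 67.6% of WT and 16.3% of mutant Müller-like cells, against 1.08% and 0.701% of rod-like cells at median depths of 1730 and 1327 UMIs. *Socs3* was found in 29.7% and 2.17% of Müller-like cells, against 0.483% and 0.139% of rod-like cells. With every cell thinned to 400 UMIs, the shares in Müller-like cells were 21.0% and 2.98% for *Cebpd* and 5.52% and 0.135% for *Socs3*. *Vim*, whose summed level differed little, was also found in fewer mutant cells, 89.2% against 27.2%, and 18.2% against 8.23% after thinning, whereas *Cp* stood at 32.8% and 29.5% after thinning. A UMI of 3 or more of the 10 genes was seen in 32 of 37 WT and 13 of 92 mutant Müller-like cells.

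The Müller-like cells of the libraries differed in depth. Over the whole class the Müller markers summed to similar levels, 18510 CPM in WT and 19521 CPM in the mutant, but their sums differed between cells of like depth. Of the 37 WT cells, 23 had 8000 or more UMIs and 13 had from 2000 to under 8000, while 54 of the 92 mutant cells had under 2000. Under 2000 UMIs the markers summed to 28721 CPM in the mutant, and WT had only 1 cell. At 8000 or more UMIs, where the Müller markers summed to 15176 CPM in WT and 18194 CPM in the mutant, *Cebpd* was at 310 and 155 CPM, *Socs3* at 81.3 and 22.1 CPM, *Vim* at 269 and 370 CPM, and *Cp* at 494 and 608 CPM. From 2000 to under 8000 UMIs the markers summed to 49673 CPM in WT and 17092 CPM in the mutant, and all 4 genes were lower in the mutant, *Cebpd* at 1144 and 46.8 CPM, *Vim* at 717 and 187 CPM, *Cp* at 1558 and 534 CPM, and *Socs3* at 165 and 0 CPM. *Cebpd* and *Socs3* were thus lower in the mutant at both depths, and *Vim* and *Cp* at the lower depth but not at the higher one. *Lcn2* gave 20 WT and 3 mutant UMIs in Müller-like cells, but 18 of the 20 were in 1 cell. Without the richest cell of each library, which leaves very few UMIs in both, the log2 ratio turned from −1.60 to 1.25.

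Of the 7 genes with enough UMIs in Müller-like cells, 0 were higher in the mutant beside 13.5% of 8020 genes, and 3, *Cebpd*, *Socs3*, and *Lcn2*, were lower beside 18.0% of genes. The median log2 ratio was −0.12 for the 7 genes and −0.05 for all genes. The count and the median depended on how cells were weighted and classed. With genes scaled over both libraries before clustering, *Vim* (−0.94) and *Cp* (−0.82) were lower too and the median was −0.94, and with classes taken from the marker UMIs of each cell they were at −0.60 and −1.71 and the median was −1.46. With the mean of per-cell CPM, *Vim* was at −1.31, *Cp* at −0.45, and *Stat3* at 1.06, and the median was −1.31. *Cebpd* and *Socs3* were lower under all 3 of these settings. *Stat3* stood at 53.3 CPM in WT and 73.1 CPM in the mutant (40 and 25 UMIs) and *Fgf2* at 26.6 and 32.2 CPM (20 and 11 UMIs), both within counting error. *Edn2* had 6 and 7 UMIs. The 3 higher of 7 genes in the *Glul*-rich cells, *Vim*, *Cp*, and *Lcn2*, stood beside 20% of 11170 genes, and 0 were lower beside 4.24%. There the median was 0.51 for the 7 genes and 0.09 for all genes. With Müller-like and *Glul*-rich cells pooled, the log2 ratio was −2.59 for *Cebpd*, −3.68 for *Socs3*, −0.88 for *Cp*, and 0.01 for *Vim*. Müller-like cells gave 18.1% of these pooled UMIs in WT and 6.44% in the mutant, so the pooled ratios also follow the mix of the cells, and *Cp* was above 0 in each group on its own (0.10 and 0.75).

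In rod-like cells, *Edn2* (chr4:120161206-120167360, plus strand), the endothelin that stressed photoreceptors release, was lower in the mutant. It stood at 11.6 CPM in WT (10.5 to 12.8) and at 3.09 CPM in the mutant (106 UMIs, 2.53 to 3.74), a log2 ratio of −1.91 (−2.23 to −1.60). Rod-like cells held 84.1% of the WT *Edn2* UMIs and 47.7% of the mutant ones, and a UMI was seen in 2.33% of WT and 0.628% of mutant rod-like cells. The gap depended on depth. In cells with under 1000 UMIs *Edn2* had 0 UMIs in WT and 6 in the mutant, and in those with 1000 to under 2000 UMIs it stood at 2.98 and 2.81 CPM. From 2000 UMIs upward the WT level was 14.8, 15.0, and 13.2 CPM with rising depth and the mutant level 4.10, 2.38, and 3.22 CPM. The WT level thus varied with depth, and the mutant level was low at every depth. In cone-like cells *Edn2* was at 3.69 and 4.35 CPM, with 17 of the 66 mutant UMIs in 1 cell, and over all cells it was at 8.75 and 3.53 CPM (−1.31, −1.55 to −1.08).

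*Lcn2* (chr2:32384633-32388252, minus strand), which encodes the iron-binding acute phase protein lipocalin 2, went the other way in rod-like cells. It stood at 4.86 CPM in WT (168 UMIs, 4.15 to 5.65) and 11.3 CPM in the mutant (386 UMIs, 10.2 to 12.4), a log2 ratio of 1.21 (0.95 to 1.48), and a UMI was seen in 1.57% and 2.59% of cells. The gap widened with depth. Under 2000 UMIs the intervals overlapped, with 8.54 and 10.2 CPM in the shallowest cells and 8.01 and 10.2 CPM in the next group, and in the deepest cells the level was 3.59 CPM in WT and 13.5 CPM in the mutant. Cone-like cells had 5.78 and 9.09 CPM (0.65, 0.21 to 1.11), and all cells together 5.36 and 9.74 CPM (0.86, 0.66 to 1.07). Free RNA differed in the other direction, with 8 UMIs in WT (35.4 CPM) and 1 in the mutant (2.57 CPM).

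**Figure D2:**
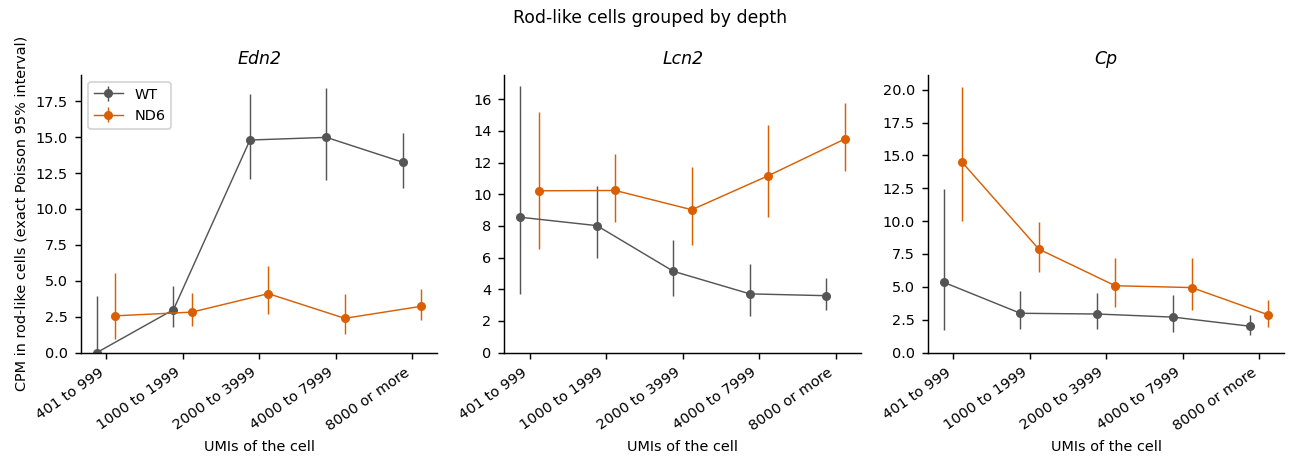
Levels in rod-like cells (CPM, with exact Poisson 95% intervals as bars) grouped by the UMIs of the cell, for WT and ND6. *Edn2* of WT stands at 13.2 to 15.0 CPM in the 3 deeper groups and the mutant at 2.38 to 4.10 CPM, while *Lcn2* of WT and mutant lies close together in the 2 shallower groups (8.01 to 10.2 CPM) and apart in the deepest (3.59 and 13.5 CPM).

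*Stat3*, *Fgf2*, and *Vim* differed little in the sum over rod-like cells. *Stat3* (chr11:100885098-100939540, minus strand), the transcription factor at the end of the gp130 pathway, had 870 UMIs in WT and 877 in the mutant, or 25.2 and 25.6 CPM (log2 ratio 0.02). *Fgf2* (chr3:37348346-37410108, plus strand) had 589 and 621 UMIs, or 17 and 18.1 CPM (0.09). In shallow cells both were higher in the mutant, with *Stat3* at 10.1 and 17.1 CPM and *Fgf2* at 9.58 and 14.8 CPM from 1000 to under 2000 UMIs, whereas from 8000 UMIs upward *Stat3* was at 36.8 and 34.3 CPM and *Fgf2* at 20.6 and 20 CPM. *Socs3* was sparse and lower, at 1.62 and 0.641 CPM (56 and 22 UMIs, −1.34, −2.12 to −0.60), but had 3 and 8 UMIs from 1000 to under 2000 UMIs per cell. *Cebpd* was at 6.39 and 4.58 CPM (−0.48, −0.79 to −0.18), with 29 of 221 WT and 18 of 157 mutant UMIs in 1 cell each. Its direction turned with depth, from 3.14 and 6.19 CPM at 1000 to under 2000 UMIs to 10.4 and 3.48 CPM at 4000 to under 8000 UMIs, and with the mean of per-cell CPM the ratio was −0.01. Of the 9 genes with enough UMIs in rod-like cells, 3 (*Gfap*, *Lcn2*, and *Cp*) were higher beside 17.1% of 13405 genes, and 2 (*Edn2* and *Socs3*) were lower beside 5.71%. Their median log2 ratio was 0.09 and that of all genes 0.02. *Stat3* overlaps *Stat5a* on the other strand. *Fgf2* overlaps *Fgf2os*, *Gm42923*, and *Nudt6* on the other strand and *Gm43439* on its own strand.

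Cone-like cells held the largest share of *Socs3*, 45.9% of the WT and 56.1% of the mutant UMIs. The level was 24.7 CPM in WT (261 UMIs, 21.8 to 27.9) and 11.5 CPM in the mutant (175 UMIs, 9.88 to 13.4), a log2 ratio of −1.10 (−1.39 to −0.82), and 21.6% and 12.4% of cells had a UMI. *Fgf2* was higher, at 20.6 against 13.1 CPM (0.65, 0.36 to 0.95). Without a cone-like cluster of very deep cells (median 25677 UMIs), from which doublets were not removed, the ratio was −0.76 for *Socs3* and 0.26 for *Fgf2*. *Stat3* stood at 42.7 and 47.4 CPM, *Cp* at 3.79 and 3.49 CPM, and *Cebpd* at 1.61 and 1.84 CPM, each within 1.5-fold. Of 8 genes with enough UMIs, 2 (*Lcn2* and *Fgf2*) were higher beside 10.1% of 12285 genes and 1 (*Socs3*) was lower beside 5.61%. The median log2 ratio was 0.17, beside −0.01 for all genes.

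Microglia-like cells had the highest *Socs3* level of the classes in both libraries, and here the ratios of *Socs3* and *Cebpd* were above 0. *Socs3* was at 204 CPM in WT (174 UMIs) and 274 CPM in the mutant (95 UMIs), a log2 ratio of 0.43 (0.05 to 0.79). *Cebpd* was at 81.9 CPM (70 UMIs) and 161 CPM (56 UMIs), a log2 ratio of 0.98 (0.44 to 1.5). *Stat3* was lower, from 145 CPM (124 UMIs) to 46.1 CPM (16 UMIs), a log2 ratio of −1.66 (−2.51 to −0.90), and *Cp* went from 4 to 16 UMIs, beside a sum of Müller markers of 4539 and 7983 CPM. The *Socs3* and *Cebpd* values came almost whole from 1 cluster of 48 WT and 26 mutant cells led by the inflammatory genes *Cxcl2*, *Il1b*, *Tnf*, and *Ccl4*. That cluster held 167 of the 174 WT and 92 of the 95 mutant *Socs3* UMIs, and 66 of 70 and 54 of 56 *Cebpd* UMIs. It also held 111 of 124 WT and 11 of 16 mutant *Stat3* UMIs, and 3 of 4 and 13 of 16 *Cp* UMIs. In the remaining microglia-like cells *Socs3* had 7 and 3 UMIs, *Cebpd* 4 and 2, and *Stat3* 13 and 5, and the ratios were −0.11, 0.12, and −0.26. Of 5 genes with enough UMIs, 2 (*Cebpd* and *Cp*) were higher beside 16.5% of 7128 genes and 1 (*Stat3*) was lower beside 15.3%. The median log2 ratio was 0.43 for the genes and 0.05 for all genes.

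**Figure D3:**
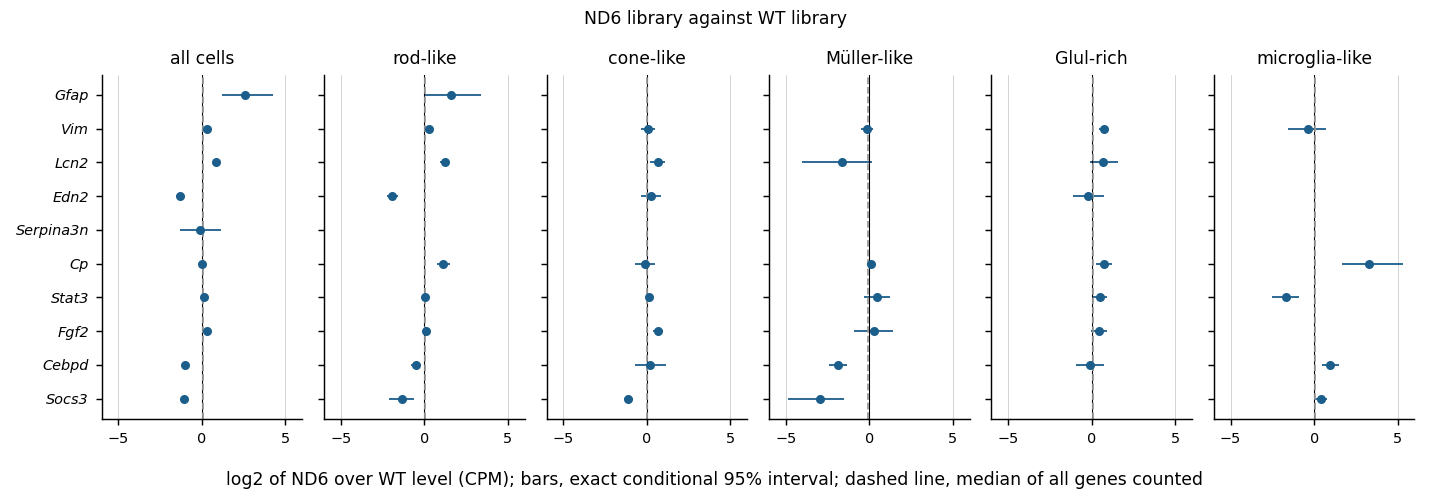
Log2 ratio of the mutant over the WT level of each gene in each class, with exact conditional 95% intervals as bars and the median of all genes as a dashed line. *Cebpd* and *Socs3* lie left of 0 in Müller-like cells (−1.85 and −2.93) and right of 0 in microglia-like cells (0.98 and 0.43), and *Edn2* lies left of 0 in rod-like cells (−1.91).

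The other genes of these pathways were read from 7 lists of pathway genes. In the gp130 and STAT3 list, 16 of 19 genes had enough UMIs over all cells, of which 1 was higher (18.6% of all genes) and 4 were lower (7.00% of all genes), with a median log2 ratio of −0.06 against 0.07 for all genes. The same shares of all genes apply to the other lists over all cells. The higher gene was *Cntfr*, the receptor subunit for ciliary neurotrophic factor, at 4.25 and 7.78 CPM (0.87). The lower ones were *Junb*, *Il6ra*, *Bcl3*, and *Clcf1*, and *Junb*, an AP-1 transcription factor, moved from 103 to 34.7 CPM (−1.57, −1.64 to −1.5). The shared receptor subunit *Il6st*, which encodes gp130, and the kinase gene *Jak1* differed little (−0.06 and 0.15). The ligand gene *Lif* had 3 UMIs in WT and 4 in the mutant, and *Il6* had 1 in each.

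Of the endothelin genes, 3 of 6 had enough UMIs, and 2 were higher. *Ednrb*, the receptor that Müller glia use, stood at 1.21 and 2.03 CPM (66 and 128 UMIs, 0.75, 0.31 to 1.20), with 3 and 8 of these UMIs in Müller-like cells. *Ece2*, an endothelin-converting enzyme, stood at 1.03 and 4.16 CPM (2.02). Of the FGF genes, 14 of 15 were counted, 2 were higher (*Fgf13*, 1.02, and *Etv5*, 0.86) and 3 lower (*Fgfr2*, −0.64, *Spry1*, −0.79, and *Dusp6*, −0.89). *Spry1* and *Dusp6* are feedback inhibitors of FGF signalling, and *Etv5* is a transcription factor downstream of it.

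The reactive glia list had 18 of 28 genes with enough UMIs, 4 higher and 8 lower, and a median log2 ratio of −0.49, beside the 18.6%, 7.00%, and 0.07 of all genes. *S1pr3*, a lipid receptor of reactive astrocytes, was higher over all cells (1.04, 0.59 to 1.5) and in Müller-like cells, at 44.0 and 99.4 CPM (33 and 34 UMIs, 1.18, 0.44 to 1.91). The hyaluronan receptor gene *Cd44* was higher over all cells (0.72, 0.22 to 1.23). *Egr1*, an immediate early gene, was the most strongly measured of the lower ones, at 337 and 64.0 CPM (−2.40, −2.45 to −2.35), and *Srgn* (−2.84), *Cxcl10* (−3.89), and *Cd14* (−1.02), which immune cells use, were lower too. Microglia and macrophage markers summed to 320 CPM in WT and 161 CPM in the mutant over all cells, and microglia-like cells made up 2.08% and 0.815% of cells. Within microglia-like cells the ratios were −1.5 for *Srgn*, −3.05 for *Cxcl10*, and −0.83 for *Cd14*. *A2m*, a protease inhibitor, was lower over all cells (−0.76) but had 0 UMIs in WT and 20 in the mutant in Müller-like cells.

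The remaining lists were short. Of 7 iron genes 1 was higher (*Hamp*, 2.44) and 1 lower (*Heph*, −0.86). *Heph* encodes a ferroxidase related to ceruloplasmin, and *Hamp* encodes the iron hormone hepcidin. Of 7 C/EBP and feedback genes 1 was higher (*Socs2*, 0.67) and 2 were lower (*Cebpa*, −2.00, and *Cebpb*, −1.67). Of 6 counted genes known from photoreceptor damage 0 were higher and 3 were lower, *Atf3* (−1.91), *C1qa* (−0.87), and *Bcl3* (−1.38), while the metallothionein genes *Mt1* and *Mt2* differed little (−0.17 and −0.24). *C1qa* is a microglial gene, and its ratio was 0.57 within microglia-like cells and 0.59 in rod-like cells. The lower share of microglia-like cells stands beside its ratio over all cells, and the part of that share was not tested.

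The immediate early genes *Egr1*, *Junb*, and *Atf3*, singled out after their values were seen, had ratios below 0 in 4 classes. *Egr1* was lower in the mutant in rod-like (−2.38), cone-like (−2.88), Müller-like (−2.32), and microglia-like cells (−1.05). *Junb* had ratios of −1.20, −1.85, −1.79, and −0.53, the last of which is under 1.5-fold, and *Atf3* of −1.37, −1.45, −1.15, and −2.98, in the same order of classes. In Müller-like cells *Cebpb* went from 94 to 6 UMIs (−2.84, −4.32 to −1.66), a difference of the same sign as in *Cebpd*. Microglia-like cells were the class where *Cebpd* and *Socs3* had ratios above 0 while *Egr1*, *Atf3*, and *Cebpb* (−1.43) had ratios below 0. Genes of this kind are known to respond to the digestion of tissue, and the part of digestion in these values was not tested.

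**Figure D4:**
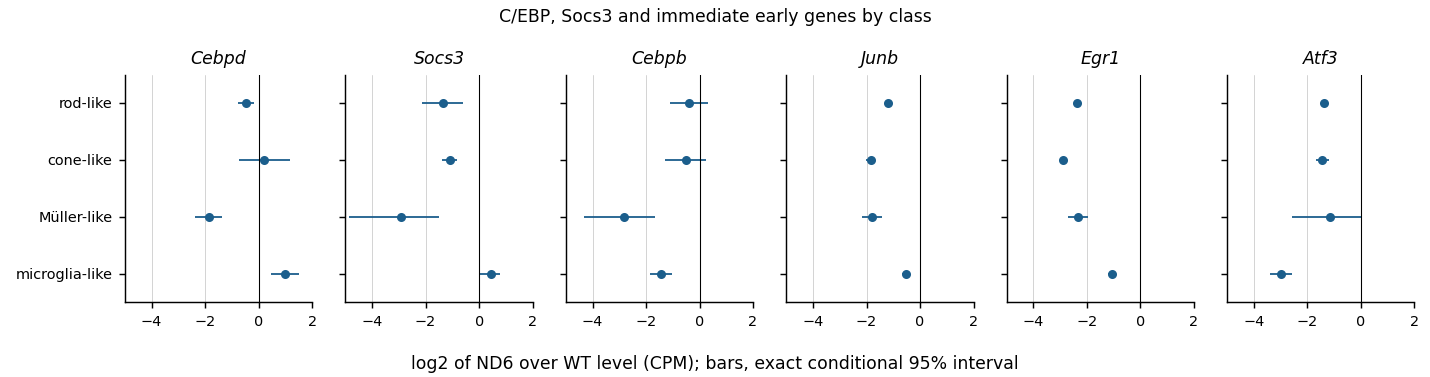
Log2 ratio of the mutant over the WT level of *Cebpd*, *Socs3*, *Cebpb*, *Junb*, *Egr1*, and *Atf3* in 4 classes, with exact conditional 95% intervals as bars. In Müller-like cells all 6 ratios are below 0, from −1.15 for *Atf3* to −2.93 for *Socs3*, and in microglia-like cells *Cebpd* (0.98) and *Socs3* (0.43) are above 0.

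Across the 8 named classes in both libraries, 16 levels of each gene, the pattern of *Cp* was most like that of *Efemp1* and *Plpp3* (Pearson r of log2 levels 0.99 each, of 11876 genes compared). *Vim* was most like *Ildr2* (0.95), *Cebpd* most like *Tcf7l2* (0.97), *Socs3* most like *Klf4*, *Zfp36*, and *Klf2* (0.94 each), and *Stat3* most like *Abl1* (0.94). The likeness was lower for *Lcn2* (*Pawr*, 0.83) and *Edn2* (*Gm42869*, 0.83). The levels of a library share its depth and its free RNA, so these values only describe the order of classes.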

How the data were processed

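The authors deposited 1 matrix of unnormalized UMI counts for each library, made with Cell Ranger 3.0.2 on mm10 and not filtered for cells. The release of the gene annotation is not given in the sources used here. Coordinates come from GENCODE vM21, which matched 32158 of the 32285 gene IDs.

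The 10 genes and all lists were chosen with earlier results of these data known. Cells met the limits of the study's methods. Log-normalized counts of 3000 variable genes, scaled by library, were reduced to 30 principal components and clustered with the Leiden method at resolution 1 on 20 neighbours (scanpy 1.11.5, python-igraph 0.11.9), which gave 25 clusters. The 10 genes, the listed pathway genes that are no markers, and mtDNA-encoded genes were left out of the clustering. A cluster needed at least 20 cells and at least 3 markers raised 2-fold, among other conditions settled after the clusters were seen. Doublets were not called and were kept. The study's regression and integration were not repeated. The marker *Septin4* and the iron gene *Tf* were not found by symbol.

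Levels have exact Poisson intervals, shares exact Clopper-Pearson intervals, and ratios exact conditional intervals at 95% (scipy 1.17.1, numpy 2.4.6). UMIs of amplified cDNA and sums over cells of 1 mouse library are not replicates, so intervals cover counting error only. A level of 3 counts was used as the limit where a count was 0. The ratio intervals were tried on simulated Poisson counts, which share the assumption of the intervals. The simulation leaves out the clumping of UMIs in single cells, so it checks the computation only. Likeness used log2(CPM + 10) for genes with at least 200 UMIs. The genes named are the 10, those of the pathway lists, and for each of the 10 with at least 200 UMIs the 3 most alike genes. Leading genes of clusters were named after their values were seen.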

Additional observations from a re-analysis of the deposited data

Results flagged for a closer look

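*Stat3*, *Cebpd*, and *Socs3* had ratios of opposite sign in different classes, each with an interval that leaves out 0. *Stat3* had a log2 ratio of mutant over WT of 0.95 in amacrine-like cells and 0.51 in *Glul*-rich cells, but −1.66 in microglia-like cells. *Cebpd* had 0.98 in microglia-like cells against −0.48 in rod-like and −1.85 in Müller-like cells. In rod-like cells its direction turned with depth, at 3.14 CPM in WT and 6.19 CPM in the mutant from 1000 to under 2000 UMIs. *Socs3* had 0.43 in microglia-like cells against −1.34 in rod-like, −1.10 in cone-like, and −2.93 in Müller-like cells. These differences between classes were not tested, since each class has 1 library per genotype.

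The barcodes over the limit on mtDNA-encoded UMIs, which entered no comparison above, also held the genes. There *Gfap* had a log2 ratio of 2.09 (11 WT and 17 mutant UMIs), *Vim* 1.69 (44.3 and 142 CPM), *Cp* 1.81 (11.4 and 40.0 CPM), and *Stat3* 1.12 (7.85 and 17.1 CPM). The limit removed 10647 WT and 3861 mutant barcodes.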

How the results depend on the processing

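No paired analysis was possible because the groups share replicate number 1 only, with 1 library each, and no replicate could be left out. Of 341 log2 ratios of the 10 genes recomputed under other settings, 30 changed sign. In 29 of these the interval of the reported ratio held 0, as for *Lcn2*, *Cp*, and *Vim* in Müller-like cells. In the other it did not: *Socs3* in microglia-like cells was −0.11 without the *Cxcl2* cluster, where only 1 gene had enough UMIs and 0 passed 1.5-fold. That setting, the cone-like cells without the deep cluster, Müller-like with *Glul*-rich cells, and leaving out the richest cell of each library were chosen after seeing the data. With the mean of per-cell CPM in place of sums, the genes past 1.5-fold were 3 over all cells and 5 in Müller-like cells, where they had been 5 and 3, and the medians were 0.39 over all cells, 0.29 in rod-like, −1.31 in Müller-like, and 0.85 in microglia-like cells. Of all genes, 28.5% were then higher and 5.25% lower over all cells, with a median of 0.22, and 24.2% and 27.7% in Müller-like cells, with a median of −0.04. The FGF and photoreceptor damage lists then had 8 and 5 genes past 1.5-fold. With genes scaled over both libraries, 5 genes passed in Müller-like cells (median −0.94), all lower, beside 17.8% of genes. In cone-like cells 1 gene passed under that setting. Under the settings of the reported ratios, 10.1% of all genes were higher and 5.61% lower in that class. With classes taken from marker UMIs of each cell, 5 passed in Müller-like cells (median −1.46), all lower, beside 16.6% of genes. With genes of at least 1 UMI admitted, 5 passed in cone-like, 5 in Müller-like, and 6 in microglia-like cells (median 0.023). Of all genes, 22.8%, 26.8%, and 29.2% were then higher and 11.1%, 25.2%, and 25.5% lower. A gene with 0 UMIs in 1 library always passes under that setting. Among those that passed this way were *Gfap* and *Serpina3n* in cone-like, *Gfap* in Müller-like, and *Lcn2* and *Edn2* in microglia-like cells. When no mtDNA limit was set, the median over all cells was 0.31 (0.17 for all genes), and the shares of WT Müller-like cells were 55.7% for *Vim*, 70.5% for *Cp*, and 42.6% for *Cebpd*, and of mutant cells 55.8% for *Cp*. Thinned to 400 UMIs, the WT and mutant shares were 18.2% and 8.23% (*Vim*), 32.8% and 29.5% (*Cp*), 21.0% and 2.98% (*Cebpd*), and 5.52% and 0.135% (*Socs3*). The cause of these changes was not tested. Few Müller-like cells and 1 library per genotype limit all values for this class.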
